A study of Mus musculus with 18 samples.

Results

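The nuclear genes of mitochondrial ribosomal proteins were examined in cultured neural stem cells of the adult mouse brain after oxidative stress. Members were all genes whose symbol starts with Mrpl or Mrps followed by a digit in the 1 ng table that the authors had filtered by CLEAR, a method that keeps genes with reliable read coverage. This rule uses names only and gave 77 genes of 13936, of which 48 carried the large subunit prefix Mrpl and 29 the small subunit prefix Mrps. All 77 were also in the filtered table of 100 pg and 74 in that of 10 pg. Mrpl58, a peptidyl-tRNA hydrolase of the large subunit, was outside the filtered 1 ng table, although the unfiltered table held between 515 and 838 reads of it per library.

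Mitochondria hold a small genome that encodes core subunits of the respiratory chain and of ATP synthase, and these are translated inside the organelle by the mitochondrial ribosome, or mitoribosome. Its rRNAs come from mitochondrial DNA, whereas every one of its proteins is encoded in the nucleus, made by cytosolic ribosomes and imported. Some of these proteins descend from proteins of the bacterial ribosome, and others have no bacterial relative. Neural stem cells are known to move from glycolysis towards oxidative phosphorylation as they give rise to neurons.

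The cells were dentate gyrus neural stem cells (NSCs) of C57Bl6J mice aged 6 to 9 weeks, grown with EGF and FGF2 and used between passage 6 and 15. They received 500 µM H2O2 or vehicle for 24 h, and RNA of about 30000 cells (RNA integrity number 10) was diluted to 1 ng, 100 pg and 10 pg. By the study's account the lines came from pooled mice of each sex. Each group held 1 library from each of 3 cultures, called F5, F8 and M9 in the column names. This gave 18 libraries in 6 groups of 3, but libraries that differ only in input were diluted from 1 RNA and are not new replicates. The labels name the vehicle as water and the methods as PBS.

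Libraries held 10032628 to 11946931 reads in genes at 1 ng, 10891411 to 13051643 at 100 pg and 10850553 to 12362510 at 10 pg. All 10 neural stem and progenitor markers examined, Nes and Sox2 among them, were in the filtered 1 ng table and summed to 77840 to 82110 normalized counts in vehicle and 76970 to 97650 in H2O2. The 4 microglia markers summed to 114.8 to 129.5 in vehicle and 149.6 to 167.6 in H2O2, groups that did not overlap, and most of the sum was Csf1r. Sums of the other lists overlapped between the groups. They were 148.5 to 266.5 in vehicle and 167.2 to 240.4 in H2O2 for 5 neuron markers, and 1852 to 2568 and 2462 to 3193 for 4 astrocyte markers, some of which neural stem cells also express. For 4 markers of the oligodendrocyte lineage they were 60.91 to 117.5 and 43.11 to 88.79, and for 3 endothelial markers 12.37 to 30.78 and 22.95 to 45.22. The part of other cell types in the members' values was not tested. Reads of mitochondrial DNA had been removed by the authors, so the mitochondrial rRNAs and the proteins that the mitoribosome makes are not analysed here.

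Promoter sequences are shown for members of each direction, since the genes are scattered over 17 chromosomes and share function rather than position. RefSeq promoter windows of GRCm38.p6, each 250 bases before to 50 bases after a start, were matched by symbol for 68 of the 77 members. Shown 5′ to 3′ are Mrpl12 (chr11:120484387-120484612, plus strand) for the large subunit members that fell, Mrps17 (chr5:129715247-129715496, plus strand) for the small, and Mrps6 (chr16:92058086-92058269, plus strand), which rose. Capitals mark matches to any of 5 motifs. Mrpl18 and Mrps18b fell further than the first pair but are not shown, because annotated exons cover that stretch.
Mrpl12: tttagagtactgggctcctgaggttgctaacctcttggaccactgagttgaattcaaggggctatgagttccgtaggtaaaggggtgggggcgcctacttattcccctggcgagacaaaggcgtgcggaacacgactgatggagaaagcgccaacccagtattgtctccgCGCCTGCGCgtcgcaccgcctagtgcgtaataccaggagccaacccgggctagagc
Mrps17: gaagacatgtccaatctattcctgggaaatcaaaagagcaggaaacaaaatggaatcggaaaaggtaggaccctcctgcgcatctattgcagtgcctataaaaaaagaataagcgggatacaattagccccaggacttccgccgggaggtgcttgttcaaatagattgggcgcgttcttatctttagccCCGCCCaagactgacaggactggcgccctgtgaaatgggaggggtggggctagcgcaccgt
Mrps6: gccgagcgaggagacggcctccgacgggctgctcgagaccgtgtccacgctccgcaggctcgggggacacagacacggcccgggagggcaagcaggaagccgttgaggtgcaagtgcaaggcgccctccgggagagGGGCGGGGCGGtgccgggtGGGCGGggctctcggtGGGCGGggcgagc

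The motifs were NRF1 (GCGCANGCG), ETS (CCGGAAG), YY1 (AAGATGGC), SP1 (GGGCGG) and the E-box (CACGTG), searched on both strands, and matches of 1 motif could overlap. In the shown stretches Mrpl12 held 1 NRF1 match, Mrps17 held 1 SP1 match and Mrps6 held 4 SP1 matches, the first pair of which overlap. NRF1 and the ETS factor GABP are known activators of nuclear genes for mitochondrial proteins. Among member promoters 16 of 68 (23.5%) held the NRF1 motif, against 6.25% of all 32851 promoters and 13.98% of the promoters of 10190 genes tested at 1 ng. The ETS motif was in 24 (35.3%) against 8.86% and 17.9%, and the YY1 motif in 12 (17.6%) against 2.75% and 4.68%. The SP1 motif was in 34 of 68 against 35.7% and 64.2%, and the E-box in 5 (7.35%) against 7.15% and 10.1%. These are matches of letters and not measured binding.

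In vehicle at 1 ng, members were expressed at moderate and very unequal levels. Means ran from 218.6 to 2748 normalized counts, with a median of 550.6. Divided by the length of the principal transcript, the large subunit median was 441.7 normalized counts per kilobase and the small subunit median 423.7. The highest large subunit levels were those of Mrpl42 (1844 ± 62.9 per kilobase, SD, n = 3), Mrpl28 (1583 ± 12.2) and Mrpl20 (1484 ± 92.4), and the lowest those of Mrpl19 (72.2 ± 3.97), Mrpl32 (80.7 ± 5.24) and Mrpl1 (87.6 ± 16.4). In the small subunit Mrps6 (3248 ± 896), Mrps21 (929 ± 72.3) and Mrps18a (808 ± 25.1) were highest, and Mrps25 (86.8 ± 2.01), Mrps35 (104 ± 4.32) and Mrps26 (129 ± 15.9) lowest. Mrpl28 and Mrpl20 overlapped in no library, whereas Mrpl32 and Mrpl1 did not separate beyond their spread. Exons of 32 members overlap those of another annotated gene, 23 of them a protein-coding gene, and counting without strand cannot fully separate such pairs.

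At 1 ng, H2O2 went with a small downward shift of most members, a fall past the threshold of 7 and a rise of 1. The 7 that fell were Mrpl18, Mrpl12, Mrpl40, Mrpl3 and Mrpl50 of the large subunit and Mrps18b and Mrps17 of the small, which retained 67.0% to 75.6% of their vehicle means. Mrps6 rose to 220.0%. Calls are from limma on log2(normalized count + 1), 3 against 3 libraries, with Benjamini-Hochberg adjusted p under 0.05 over the 13692 genes tested, and all log2 fold changes below are on that scale. The 7 are 9.09% of members, where 7.11% of all tested genes fell, and 1 is 1.30%, where 5.57% of all tested genes rose, so the shares called lay near or below the background. In bulk RNA, fewer cells of a type and less RNA per cell cannot be told apart.

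The shift itself was broader than the calls. The log2 fold change was negative in 61 of 77 members, with a median of -0.17, beside 48.5% negative and a median of 0.02 over all tested genes. In 35 members (45.5%) all 3 H2O2 libraries lay below all 3 vehicle libraries, against 19.7% of all genes, and in 5 (6.49%) they lay above, against 18.1%. The 5 were Mrps6, Mrps21, Mrpl39, Mrpl43 and Mrpl48. Against the vehicle mean, the median member was at -0.21 in H2O2 F5, -0.13 in H2O2 F8 and -0.15 in H2O2 M9, with 61, 57 and 58 members below it, so every treated culture showed the shift. Without Mrps6, members took 0.457% to 0.471% of the reads of vehicle libraries and 0.387% to 0.426% of those of H2O2 libraries, ranges that do not overlap.

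**Figure D1:**
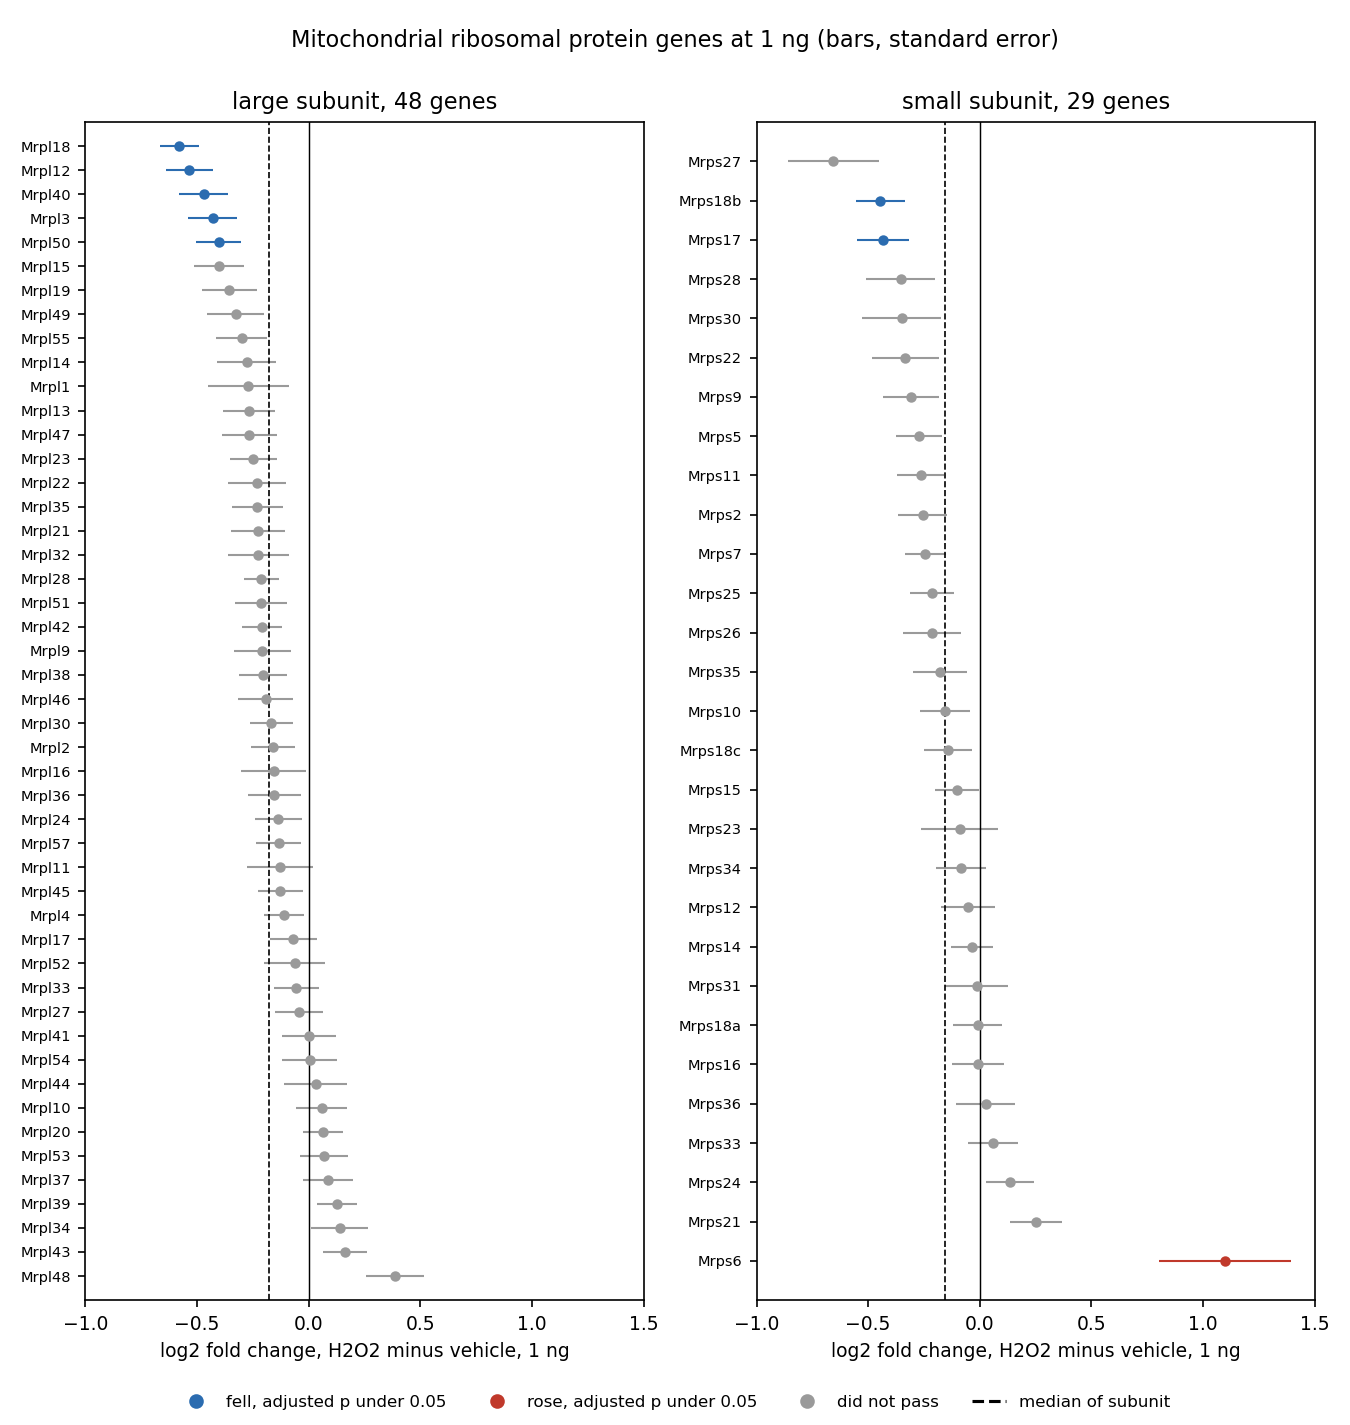
Log2 fold change of each member at 1 ng, H2O2 minus vehicle, with its standard error (bars), for the large subunit (left, 48 genes) and the small subunit (right, 29 genes). Most points lie left of 0, the medians (dashed) are at -0.18 and -0.16, and Mrps6 stands alone at the right.

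Mrpl18 fell most among the members that passed. It is the relative of bacterial L18, a protein that binds 5S rRNA in bacteria (ENSMUSG00000057388, chr17:12911349-12916345, minus strand, GENCODE M21 on GRCm38, 4 exon blocks). Its normalized counts were 1141, 1211 and 1200 in vehicle F5, F8 and M9 and 765.6, 786.1 and 827.1 in H2O2 F5, F8 and M9. The groups were far apart and each was tight, with means of 1184 ± 37.9 and 792.9 ± 31.3 (SD, n = 3). The log2 fold change was -0.58 (SE 0.086, limma adjusted p = 0.0201). Its exons share 141 bases with Tcp1 on the opposite strand, a subunit gene of the cytosolic chaperonin that fell by 0.50 (limma adjusted p = 0.0345), and the part of this overlap in the value of Mrpl18 was not tested.

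Mrpl12 encodes the stalk protein of the large subunit, whose bacterial relative recruits elongation factors, and the human protein also binds the mitochondrial RNA polymerase (chr11:120484613-120489065, plus strand). It stood at 1407, 1441 and 1437 in vehicle and 931.5, 910.2 and 1132 in H2O2 F5, F8 and M9. Vehicle libraries were nearly equal, and the treated culture M9 kept more than the other two. The change was -0.53 (SE 0.106, limma adjusted p = 0.0282). A noncoding gene on the opposite strand, Gm16755, shares 200 exonic bases with it. In the unfiltered values Gm16755 had means of 662.7 in vehicle and 471.9 in H2O2.

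Mrpl3, the relative of bacterial L3, which lies near the peptidyl transferase centre, is at chr9:105053239-105079888 on the plus strand. It had 888.3, 886.1 and 826.8 normalized counts in vehicle and 585.5, 630.5 and 721.7 in H2O2. Its groups did not overlap, and F5 was the lowest treated library (log2 fold change -0.43, SE 0.109, limma adjusted p = 0.0440).

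Mrpl40 and Mrpl50 have no bacterial relative. Mrpl40 (chr16:18872018-18876862, minus strand) had 534.7, 587.8 and 586.8 in vehicle and 390.3, 400.7 and 442.5 in H2O2, a change of -0.47 (SE 0.110, limma adjusted p = 0.0366). Mrpl50 (chr4:49512596-49521093, minus strand) had 648.6, 596.5 and 600.0 in vehicle and 466.8, 443.4 and 484.7 in H2O2, a change of -0.40 (SE 0.102, limma adjusted p = 0.0432). In both genes the highest treated library was M9 and stayed below the lowest vehicle library.

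Of the small subunit, Mrps18b and Mrps17 fell. Mrps18b is 1 of 3 mammalian relatives of bacterial S18 (chr17:35910379-35916389, minus strand). Its values were 543.2, 483.0 and 538.6 in vehicle and 383.3, 376.3 and 387.7 in H2O2, the tightest treated group of the 8, with a change of -0.44 (SE 0.108, limma adjusted p = 0.0394). An antisense gene, Gm16279, shares 638 exonic bases with it. Mrps17, whose bacterial relative binds 16S rRNA early in assembly (chr5:129715497-129722556, plus strand), had 805.2, 856.3 and 875.0 in vehicle and 545.2, 690.5 and 649.0 in H2O2, lowest in F5, with a change of -0.43 (SE 0.116, limma adjusted p = 0.0484).

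The 3 relatives of S18 differed in their values. Beside Mrps18b, Mrps18c had a log2 fold change of -0.14 (SE 0.109, limma adjusted p = 0.412) and Mrps18a of -0.01 (SE 0.110, limma adjusted p = 0.965), both with overlapping groups, and the difference between the genes was not tested. Structures of the mammalian mitoribosome place the products of Mrps18a and Mrps30 in the large subunit, and the product of Mrps36 is counted to the 2-oxoglutarate dehydrogenase complex. Mrps30 had 569.8, 515.7 and 515.9 in vehicle and 327.9, 421.0 and 530.0 in H2O2, so its treated culture M9 lay among the vehicle values (-0.35, SE 0.176, limma adjusted p = 0.219). Mrps36 was at 305.2 ± 13.5 in vehicle and 311.6 ± 32.4 in H2O2 (0.03, limma adjusted p = 0.913). Mrpl58, read in the unfiltered table, had means of 695.1 in vehicle and 591.3 in H2O2.

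**Figure D2:**
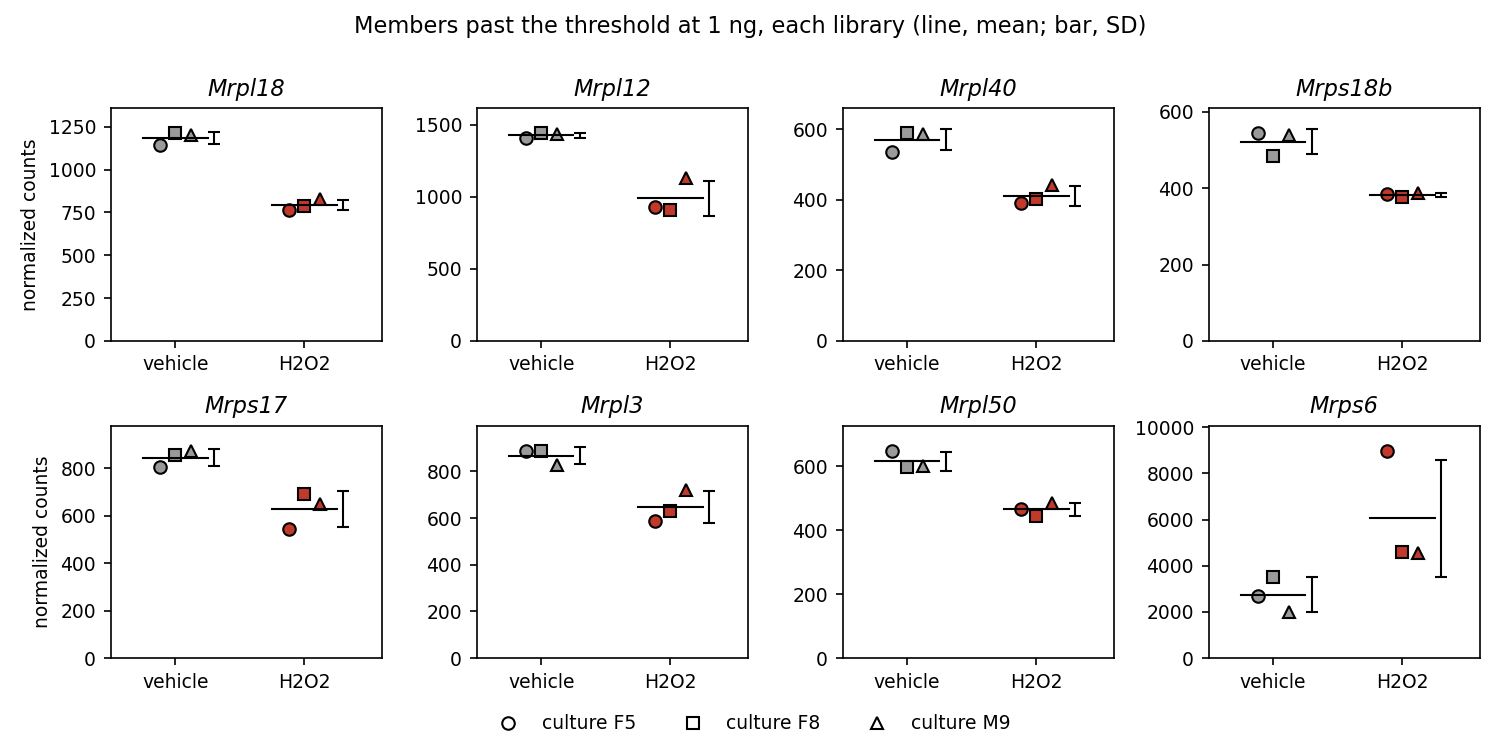
Normalized counts per library at 1 ng of the 8 members past the threshold, by treatment, with the culture as symbol, the mean as line and the SD as bar. In each gene the H2O2 and vehicle libraries do not overlap. Mrps6 in H2O2 F5 (8984) stands far above the other libraries.

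Mrps6 was the only member called higher. It encodes the relative of bacterial S6 (chr16:92058270-92112227, plus strand). Its values were 2693, 3532 and 2020 in vehicle and 8984, 4586 and 4571 in H2O2 F5, F8 and M9. All treated libraries lay above all vehicle libraries, but the F5 culture was nearly double the other treated ones, which left a wide spread (2748 ± 758 against 6047 ± 2544) and a change of 1.10 with SE 0.294 (limma adjusted p = 0.0488). The gene shares 159 exonic bases on the same strand with Slc5a3, the sodium/myo-inositol cotransporter, whose annotated start is 52 bases away. Mrps6 also shares 305 exonic bases with Gm49711, an annotated protein-coding gene on the same strand for which no counts were given. Slc5a3 had 3504, 4331 and 2273 in vehicle and 16270, 6911 and 5868 in H2O2 (1.42, SE 0.387, limma adjusted p = 0.0509, and 0.0212 with culture as replicate block), with the same order of libraries in vehicle and the same highest treated library. Reads of shared exons cannot be assigned with certainty, the call of Mrps6 is therefore uncertain, and the part of Slc5a3 in it was not tested.

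Mrps27 and Mrpl48 are given because of their values and outside the naming rule. Mrps27, a pentatricopeptide repeat protein of the small subunit, had the most negative change of all members, but with 720.0, 672.5 and 873.2 in vehicle and 348.1, 526.8 and 586.9 in H2O2 it did not pass (-0.66, SE 0.204, limma adjusted p = 0.0694). With culture as replicate block its limma adjusted p was 0.0342, and Mrpl15 and Mrpl48 passed as well (0.0353 and 0.0359). Thus 9 of 77 members fell and 2 rose in the paired fit, in which 9.87% of all tested genes fell and 8.44% rose. By DESeq2 without the block Mrps27 (adjusted p = 0.0282) and Mrpl15 (0.0287) passed too, and Mrpl48 did not (0.0588). That fit called 9 of 77 members lower and 1 higher, where it called 10.7% of all tested genes lower and 9.67% higher. Mrpl48 had 1580, 1543 and 1322 in vehicle and 2282, 1850 and 1712 in H2O2 (0.39, SE 0.129, limma adjusted p = 0.0828). Its exons share 708 bases with Rab6a on the opposite strand, a gene with means of 4793 and 7154 in the unfiltered values. In the filtered values Rab6a rose by 0.57 (limma adjusted p = 0.0310), and the part of this overlap was not tested.

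The large and the small subunit shifted to a like extent. The median log2 fold change was -0.18 over 48 large subunit members (quartiles -0.27 and -0.05, 37 negative) and -0.16 over 29 small subunit members (quartiles -0.27 and -0.01, 24 negative). By structure, with Mrps18a and Mrps30 counted as large and Mrps36 left out, the medians were -0.18 and -0.17. The order of the subunits was not the same in every culture. The medians against vehicle were -0.19 for the large and -0.22 for the small subunit in H2O2 F5, -0.15 and -0.10 in F8, and -0.14 and -0.16 in M9. Of large subunit members 23 (47.9%) had all treated libraries below all vehicle libraries and of small subunit members 12 (41.4%), against 19.7% of all tested genes. They lay above in 3 large (6.25%) and 2 small (6.90%) subunit members, against 18.1%.

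Descent was assigned from the number in the symbol and not checked gene by gene. Members up to Mrpl36 and Mrps21, and Mrps24, were classed as having a bacterial relative, and all others, Mrps36 included, as having none. Of large subunit members 25 of 28 in the first class were negative (median -0.21), and 12 of 20 in the second (median -0.13). In the small subunit these were 14 of 17 (median -0.14) and 10 of 12 (median -0.20). The order of the 2 classes thus differed between the subunits, and no difference between them was tested. Of the 8 members that passed, Mrpl40 and Mrpl50 are the only ones without a bacterial relative.

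Many members lie close to another gene that is transcribed away from them. A protein-coding gene began head to head within 1000 bases of 18 members without overlapping them. Of these 18 neighbours 3 fell and 2 rose, where 7.11% of all tested genes fell and 5.57% rose by limma. Ncapd2, a condensin subunit gene 100 bases from Mrpl51, fell by 1.66 (limma adjusted p = 0.0372), Ska3, a kinetochore gene 49 bases from Mrpl57, fell by 2.15 (limma adjusted p = 0.0476), and Helq, a DNA helicase gene 29 bases from Mrps18c, fell by 0.87 (limma adjusted p = 0.0409). Klc4 beside Mrpl2 rose by 0.89 (limma adjusted p = 0.0201) and Eme2 beside Mrps34 by 0.49 (limma adjusted p = 0.0234). None of the 5 members beside these neighbours passed by limma or DESeq2, and 0 were at an unadjusted limma p under 0.05. Of the 18 members themselves 3 fell, namely Mrpl40, Mrpl50 and Mrps18b. Their neighbours Hira, Zfp189 and Ppp1r10 did not pass by limma. Opposite-strand pairs that overlap at their starts were not counted here. Among those, Mrpl18 and Tcp1 both fell. In the pairs Mrpl48 with Rab6a, Mrpl14 with Tmem63b and Mrpl27 with Eme1 only the neighbour passed by limma without the block.

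The other parts of the mitochondrial translation system had medians of the same sign. None of 5 mitoribosome proteins with other symbols, Dap3 and Ptcd3 among them, passed at 1 ng (median -0.18, 4 negative), nor did any of 14 mitochondrial translation factors (median -0.14, 12 negative). By limma, 2 of the former and 3 of the latter were at an unadjusted p under 0.05, as were 4319 of all 13692 tested genes. DESeq2 called 1 and 2 at adjusted p under 0.05, where it called 10.7% of all tested genes lower and 9.67% higher. Of 22 assembly genes, Noa1, a GTPase needed for the small subunit, fell from 467.9 ± 13.5 to 318.4 ± 26.6 (-0.56, SE 0.118, limma adjusted p = 0.0310) and Mpv17l2, a membrane protein linked to mitoribosome assembly in human cells, rose from 220.9 ± 18.1 to 352.4 ± 70.0 (0.66, SE 0.174, limma adjusted p = 0.0476), with a median of -0.20. Of 17 genes of mitochondrial transcription and RNA handling, Polg, the catalytic subunit of the mitochondrial DNA polymerase, fell by 0.69 (limma adjusted p = 0.0267), and the median was -0.29. Noa1 and Mpv17l2 are each 4.5% of the assembly genes and Polg is 5.88% of its list. Of all tested genes 7.11% fell and 5.57% rose by limma.

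Regulators of nuclear genes for mitochondrial proteins moved in both directions. Of 14 tested, 2 (14.3%) rose, where 5.57% of all tested genes rose. Another 4 (28.6%) fell, where 7.11% of all tested genes did. These were Pprc1, a PGC-1-related coactivator (975.4 ± 124 to 470.4 ± 104, -1.07, limma adjusted p = 0.0220), Gabpb2 (-0.66, limma adjusted p = 0.0460) and Gabpb1 (-0.61, limma adjusted p = 0.0442), which encode partners of the ETS factor GABPA, and the cofactor gene Hcfc1 (-0.32, limma adjusted p = 0.0426). Ppargc1a, which encodes the coactivator PGC-1 alpha, rose from 690.7 ± 55.3 to 1086 ± 208 (0.64, limma adjusted p = 0.0372), and Esrra, a nuclear receptor that works with it, from 360.6 ± 14.7 to 557.1 ± 94.5 (0.61, limma adjusted p = 0.0359). Nrf1 itself was at 936.7 ± 112 in vehicle and 656.4 ± 99.9 in H2O2 and did not pass (-0.52, limma adjusted p = 0.0537, and 0.0258 with culture as replicate block).

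Transcripts of nuclear genes of the respiratory chain, whose proteins assemble with the products of mitoribosomes, mostly had log2 fold changes of the opposite sign. Of 80 tested nuclear genes of the respiratory chain and ATP synthase, 10 rose and none fell, 77 were positive and the median was 0.22, with Ndufb6 (0.46, limma adjusted p = 0.0283) and Ndufs4 (0.45, limma adjusted p = 0.0277), both of complex I, and Cox6b2 (1.70, limma adjusted p = 0.0202), of complex IV, among the 10. Of 79 cytosolic ribosomal protein genes 18 fell and none rose, with a median of -0.27, Rps27a (-0.50, limma adjusted p = 0.0258) and Rps16 (-0.50, limma adjusted p = 0.0296) among the 18. The 10 and the 18 are 12.5% and 22.8% of their lists, where 5.57% of all tested genes rose and 7.11% fell. No test between lists was run. Proliferation genes moved too, as 6 of 10 fell (median -2.30), and Mki67 had 2362 to 2749 normalized counts in vehicle and 132.8, 747.5 and 1020 in H2O2 F5, F8 and M9. The culture with the least Mki67, F5, also had the lowest median of members. F8, however, had less Mki67 than M9 but a weaker shift (-0.13 against -0.15). The part of proliferation in the members' shift was not tested.

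**Figure D3:**
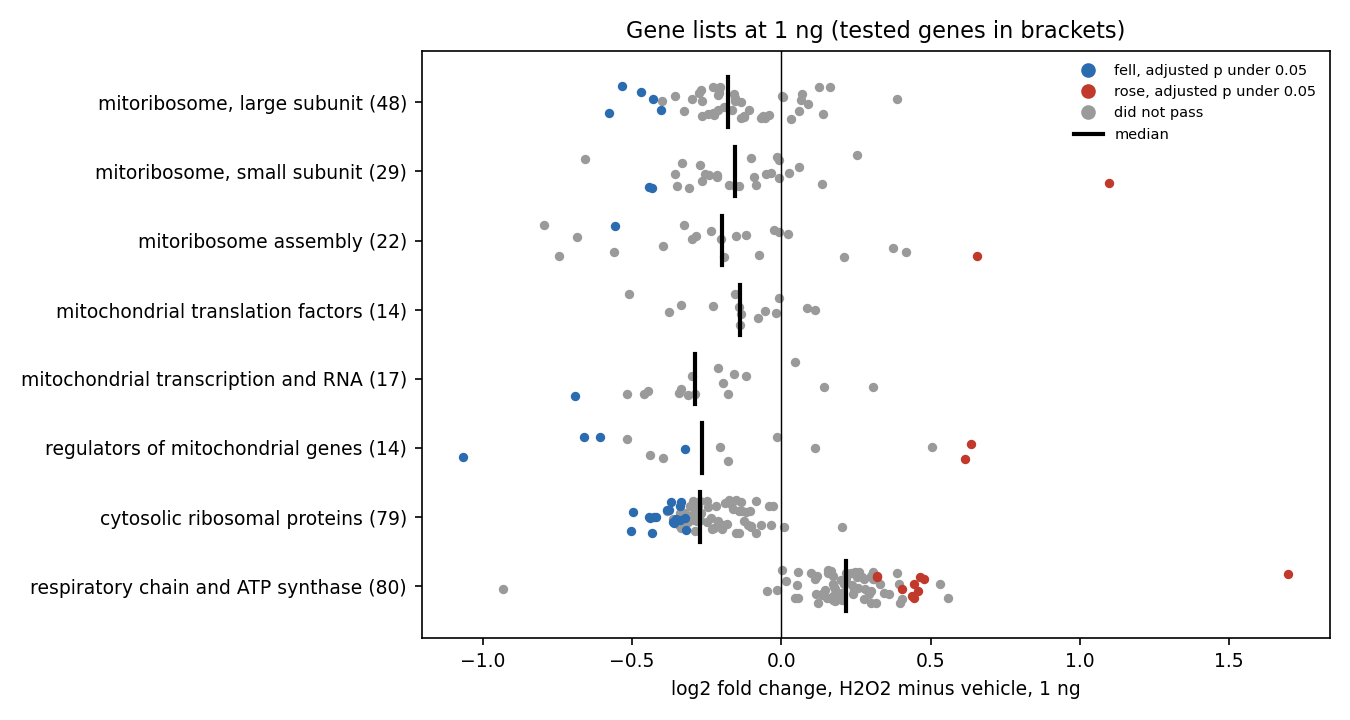
Log2 fold change at 1 ng, H2O2 minus vehicle, of each tested gene by list, with the median as vertical bar and colours for genes past the threshold. The medians of both subunits (-0.18 and -0.16) lie left of 0, as does that of cytosolic ribosomal proteins (-0.27), and that of the respiratory chain lies right of it (0.22).

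The calls at 1 ng depended on single libraries. Without vehicle F5, F8 or M9, limma called 0 of 77 members, and in these fits it called 0 genes of all kinds, with 14, 12 and 10 members at an unadjusted p under 0.05. Of all tested genes 3562 of 13668, 3566 of 13659 and 3260 of 13668 were under that p. Without H2O2 F5, F8 or M9 there were 4, 1 and 5 fallen and 1, 0 and 1 risen members. Of all genes tested in these 3 fits, 7.22%, 2.87% and 7.08% fell and 4.23%, 1.8% and 5.12% rose. The median of the large subunit stayed negative in each of these fits, between -0.20 and -0.12, and was weakest without H2O2 F5.

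At 100 pg no member passed, but the shift had the same sign. By limma 0 of 77 were called, where 0.846% of all tested genes fell and 0.666% rose. At an unadjusted limma p under 0.05 were 10 members and 2558 of all 12171 tested genes. DESeq2 on the recovered reads called 2, Mrpl18 lower (adjusted p = 0.00928) and Mrps6 higher (adjusted p = 0.00277), and edgeR called 0. Of all genes, DESeq2 called 5.01% lower and 4.31% higher at this input. The log2 fold change was negative in 56 of 77 (median -0.11 for the large and -0.15 for the small subunit, 0.01 for all genes). All treated libraries lay below vehicle in 18 members (23.4%), against 14.1% of all genes, and above in 4 (5.19%), against 12.6%. These libraries hold the same RNA as those of 1 ng and are not independent of them.

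Mrpl18 and Mrps6, called by DESeq2, did not pass by limma at 100 pg. Mrpl18 had 1481, 1444 and 1445 in vehicle and 820.3, 1073 and 958.0 in H2O2, groups that were again apart (-0.62, SE 0.150, limma adjusted p = 0.0694). Mrps6 had 3112, 4065 and 2601 in vehicle and 11030, 5240 and 5643 in H2O2, again highest in F5 (1.10, SE 0.278, limma adjusted p = 0.0772). The other members that passed at 1 ng had log2 fold changes of -0.42 (Mrpl12), -0.28 (Mrpl3), -0.32 (Mrpl40), -0.42 (Mrpl50), -0.50 (Mrps18b) and -0.53 (Mrps17). The groups of Mrpl40 and Mrps18b overlapped at this input.

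At 10 pg the members' values scattered. By limma 0 of 74 tested were called, and DESeq2 and edgeR also called 0. At an unadjusted limma p under 0.05 were 7 members and 646 of all 6356 tested genes. No gene of any kind was called by limma (0.0% lower and 0.0% higher). Changes ran from -2.26 to 1.13, 44 of 74 were negative, and the medians were -0.16 for the large and -0.04 for the small subunit. Treated libraries lay below vehicle in 9 members (12.2%), against 8.43% of all genes, and above in 6 (8.11%), against 7.91%.

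Single members were close to 0 in single libraries at this input. Mrps2 had 261.8, 474.0 and 1177 in vehicle and 2.14, 1258 and 1249 in H2O2 F5, F8 and M9. Mrpl9, 1 of the 3 large subunit members outside the filtered table with Mrpl10 and Mrpl47, had 780.4 to 1664 in vehicle and 0 in H2O2 F8, and Mrpl10 had 1.77 in vehicle F5 and 633.2 to 1396 in the other 5 libraries. These 3 genes are named for these values. Mrpl18 was at 1383, 1006 and 1455 in vehicle and 1365, 903.8 and 1723 in H2O2, overlapping groups with a change of 0.02 (SE 0.377). Mrps6, with 3615, 3716 and 2504 in vehicle and 11330, 5106 and 6091 in H2O2, still had groups apart (1.13, SE 0.324, limma adjusted p = 0.347). Mrps17 changed sign (0.58, SE 0.532), and Mrpl12 (-0.72, SE 0.365), Mrpl3 (-0.69, SE 0.443), Mrpl40 (-0.17), Mrpl50 (-0.14) and Mrps18b (-0.04) kept a negative one with overlapping groups.

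**Figure D4:**
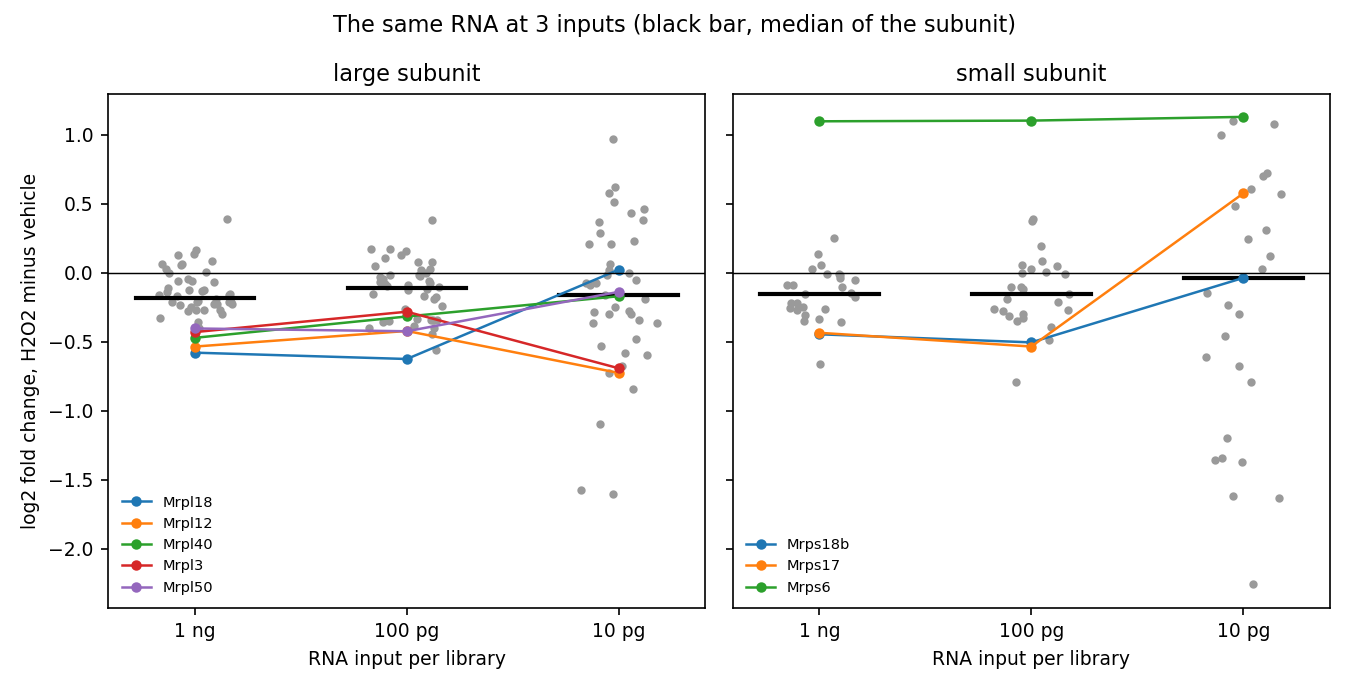
Log2 fold change, H2O2 minus vehicle, of each member at 1 ng, 100 pg and 10 pg, by subunit, with the median as black bar and lines for the members that passed at 1 ng. The points spread from -0.66 to 1.10 at 1 ng and from -2.26 to 1.13 at 10 pg, and Mrps6 stays near 1.10.

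The spread between libraries of a group differed between the inputs. The coefficient of variation (SD over mean of 3 libraries) of the median member was 5.49% in vehicle and 7.43% in H2O2 at 1 ng, 9.55% and 11.2% at 100 pg, and 33.1% and 38.5% at 10 pg. Over all genes of the filtered tables it was 12.3% and 16.5%, 19.3% and 22.7%, and 36.2% and 38.1%. Members were thus less variable than the median gene at 1 ng and 100 pg and near it at 10 pg, without matching for expression level. The median standard error of a member's log2 fold change was 0.114, 0.187 and 0.553.

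**Figure D5:**
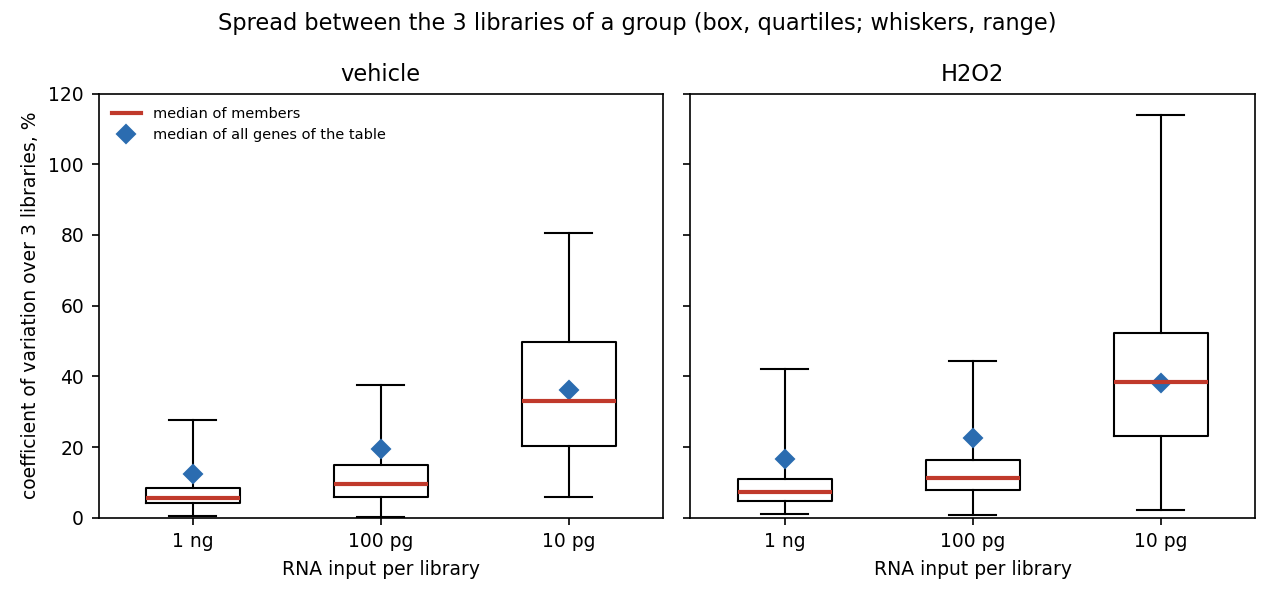
Coefficient of variation over the 3 libraries of a group for the members at each RNA input, in vehicle (left) and H2O2 (right), with boxes for quartiles, whiskers for the range and diamonds for the median of all genes of the table. The red medians of vehicle rise from 5.49% at 1 ng to 33.1% at 10 pg.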

How the data were processed

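RNA of NSC cultures was preamplified by the authors with SMART-Seq HT, made into Nextera XT libraries and sequenced from both ends. The authors trimmed reads, removed those of rRNA, mitochondrial DNA and PhiX, aligned the rest to GRCm38 with HISAT2 2.0.6 and counted them per gene without strand with featureCounts. The submitters' notes also name CASAVA 1.8.2 and the build GRCh38, although the genes are mouse genes. Deposited tables hold normalized counts (a signal, not raw counts), which the authors obtained by dividing gene counts by a size factor per library, separately for each input, so tests stayed within an input. The authors then deposited tables filtered by CLEAR and unfiltered ones. All values (100%) were whole multiples of 1 read, with a deviation of at most 6.98e-10 reads, so reads were recovered.

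Columns were assigned to groups by their headers. Treatments were compared with limma 3.58.1 (R 4.3.3, trended variances, 2-sided) on log2(value + 1), after leaving out genes at 0 in all libraries, adjusted over 13692, 12171 and 6356 genes. Alternatives were pseudocounts of 0.5 and 5, a minimum mean of 10, the unfiltered table, DESeq2 1.42.0 and edgeR 4.0.16 on recovered reads, culture as replicate block, and each library or culture left out. Libraries were paired by culture because each culture code occurs with both treatments in the headers. Deviations of the same culture correlated for F5, F8 and M9 with r of 0.122, 0.101 and 0.341 at 1 ng. At 100 pg these were 0.0771, 0.0262 and 0.17, and at 10 pg -0.0293, 0.0103 and 0.0341. Unlike cultures had r of -0.204 to 0.0962 at 1 ng, -0.126 to 0.0526 at 100 pg and -0.0439 to 0.0324 at 10 pg. The upper values at 1 ng and 100 pg were those of vehicle F8 with H2O2 F5, so the F8 pair did not stand out. The methods name 2 NSC lines, 1 from pooled male and 1 from pooled female mice, and the paper counts 1 male and 2 female replicates per treatment. On that account 2 of the 3 cultures share the female line, and p-values measure the spread between cultures rather than lines. By their letters, which the headers do not explain, these 2 would be F5 and F8. The model was tested on simulated data.

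Values given in full are those of members past the threshold, of the 3 highest and 3 lowest per kilobase in each subunit, of Mrps18a, Mrps18b, Mrps18c, Mrps30, Mrps36, Mrpl12 and Mrpl58 by role, and of other lists' genes past the threshold, at most 6 a list. Members and lists were chosen with earlier results of these data known. Subunits follow the symbol, and lengths, positions and overlaps come from GENCODE M21, where all 77 symbols matched. The authors counted reads with an earlier GENCODE release, so overlaps at counting may have differed from those given here.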

Additional observations from a re-analysis of the deposited data

How the results depend on the processing

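At 1 ng the 7 fallen members became 2 in the unfiltered table, where more genes were tested and 1077 of all 35890 fell. They ranged from 0 to 5 when a library was left out, where the calls over all genes also changed, as given above. The large subunit median was between -0.20 and -0.12 in these fits and -0.13 without both libraries of F5. The 1 risen member became 0 with a pseudocount of 5 and 2 with culture as replicate block, also by DESeq2 with that block, an alternative added after seeing the data, and ranged from 0 to 1 with a library left out. Of all 13692 tested genes, 740 rose with that pseudocount, 1155 with the block and 1181 by DESeq2 with the block. At 100 pg limma called 0 fallen and 0 risen members. DESeq2 called 1 and 1 without the block and 2 and 1 with it. Of all 12171 genes tested at 100 pg, DESeq2 called 610 lower and 524 higher without the block and 722 and 606 with it. At 10 pg DESeq2 with the block called 1 risen member, where it called 106 of all 6356 tested genes higher and 106 lower. Why the methods differed was not tested. The replicate block changed no other call among the 8 members that passed at 1 ng, all of which passed with it. By DESeq2 with the block 5 of these 8 passed.

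At 10 pg signs were not stable. Mrps18b turned to 0.082 with DESeq2 and 0.076 with edgeR. With 1 library left out, the log2 fold change ranged from -0.47 to 0.41 for Mrps18b, -0.19 to 0.28 for Mrpl18, -0.64 to 0.11 for Mrpl40 and -0.64 to 0.23 for Mrpl50. With both libraries of a culture left out, signs turned to 0.41 (without F8) and 0.18 (without M9) for Mrps18b, -0.086 (without M9) for Mrpl18, 0.18 (without F8) and 0.36 (without M9) for Mrpl40 and 0.12 (without F8) for Mrpl50. Total reads were alike at all inputs (10032628 to 13051643), while the median standard error rose from 0.114 at 1 ng to 0.553 at 10 pg.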
